A study of Mus musculus with 12 samples.

Results

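The genes described here encode the proteasome, and they were followed in bulk RNA sequencing of mouse neocortex. A gene was taken as a member when its symbol, looked up by Ensembl gene identifier, began with Psma, Psmb, Psmc, Psmd or Psme and a number, and pseudogenes were left out. This gave 45 of the 46603 genes counted, with 4 pseudogenes set aside. The letters alone also brought in Psmc3ip, a gene of meiotic recombination, and Psme2b, a retrogene copy of Psme2, so 43 members name a subunit, assembly chaperone or activator of the proteasome.

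The study took neocortex of mice on a C57Bl/6J background at embryonic day 12.5 (E12.5) and postnatal day 5 (P5), from wild-type Chd8+/+ animals and from Chd8+/- animals carrying 1 null allele of Chd8, a chromatin remodelling factor. The null allele came from deletion of a loxP-flanked exon by Cre under the β-actin promoter, and the Cre was then bred out. Experimental animals came from matings of Chd8+/- with C57BL/6J mice. The null allele was thus inherited and carried by every cell type and not by cortical cells alone. Each of the 4 groups of stage and genotype held 3 libraries, and each library was sequenced in 2 runs whose counts were summed. Both hemispheres were used at E12.5 and a single hemisphere at P5, and the stages were counted into separate tables. The names of the count columns also give different sequencing runs for each stage. Age, the amount of cortex taken, the sequencing runs and the counting run therefore cannot be told apart in any comparison of stages. Nothing in the labels says that the libraries of a group came from separate animals or litters, so the p-values measure the spread between these libraries.

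The proteasome is the main protease for proteins tagged with ubiquitin. Its 20S core is a barrel of alpha and beta subunits, of which 3 beta subunits cut the chain, and the 19S cap recognises ubiquitin, unfolds the substrate with a ring of ATPases and removes the tag through its lid. Cells exposed to interferon exchange the cutting subunits for inducible forms, which gives the immunoproteasome that prepares peptides for presentation on major histocompatibility complex class I. Activators such as PA28 and PA200 can dock on the core in place of the cap. The core and the cap are used by every cell, and in the developing brain protein turnover takes part in the cell cycle, in axon growth and in synapse formation.

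The libraries held between 38774591 and 54695236 counts each, with a median of 45461819. Members took 0.505 to 0.547% of the counts at E12.5 and 0.339 to 0.370% at P5. Levels below are CPM, counts set relative to the library size after scaling by the trimmed mean of M-values (TMM) over the 12 libraries. They compare libraries for a gene, while levels compared between genes are given per kilobase of merged exon. The labels held for the targeted gene: Chd8 was at 233 ± 3.55 CPM in Chd8+/+ and 164 ± 3.31 CPM in Chd8+/- at E12.5, and at 149 ± 3.11 and 96.5 ± 1.93 CPM at P5 (mean ± SD, n = 3 each). The 2 runs of a library differed little (chi-square per degree of freedom 1.18 to 1.51), whereas libraries of a group differed by 6.65 to 46. P5 Chd8+/- replicate 3 stood apart, at 46 and 40.5 from the other libraries of its group. Libraries were prepared to keep strand, but the counting command recorded for P5 gives no strand option and that for E12.5 is not given in the sources used here. Psmd9 shared 25.5% of its exon bases with another gene, Psmc3ip 21.2%, Psmb5 12.5% and Psmb7 11.8%, and reads there may belong to either gene. Bulk libraries cannot tell fewer cells of a type from less RNA per cell.

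At E12.5 the subunits of the core and of the cap were all abundant, with a summed level over the 31 constitutive 20S and 19S subunits of 4450 ± 221 CPM in Chd8+/+ (SD, n = 3). Per kilobase the 7 alpha subunits ran from 33.8 CPM for Psma3 to 124 CPM for Psma2, and the 7 constitutive beta subunits from 35 CPM for Psmb7 to 131 CPM for Psmb1. The 8 lid subunits ran from 22 CPM per kilobase for Psmd11 to 95.2 for Psmd8, a 4.33-fold range that widened to 7.09-fold at P5 in Chd8+/+. Subunits that are built into the complex in equal number thus differed several-fold in RNA level per kilobase. The merged exon models of the lowest genes are long (3894 bases for Psma3, 3421 for Psmb7 and 6383 for Psmd11), and dividing by them lowers the values of these genes.

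The comparison of P5 with E12.5 asks how the members changed as the cortex passed from dividing progenitors to postnatal neurons and glia. Nearly all of the standard proteasome was lower at P5, while the inducible subunits and the PA28 gene Psme1 were higher. In Chd8+/+, 35 of 45 members were lower at P5 and 4 were higher (edgeR quasi-likelihood test, Benjamini-Hochberg adjusted p under 0.05). Of all genes tested, 41.7% were lower and 41.4% higher. The median log2 fold change of the members was -0.47, against -0.018 over all genes tested. In Chd8+/-, 35 members were lower and 4 higher, with 41.6% of all genes lower and 41.3% higher, and the median was -0.45 against -0.005. The 4 higher members were the same in both genotypes, and 34 were lower in both. The libraries of the stages did not overlap for 36 members that were lower and 4 that were higher in Chd8+/+ (42.4% and 41.8% of all genes tested), and for 34 and 4 in Chd8+/- (42.2% and 41.9%). Without P5 Chd8+/- replicate 3, the library that stood apart, 37 members were called in Chd8+/-, against 39.

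**Figure D1:**
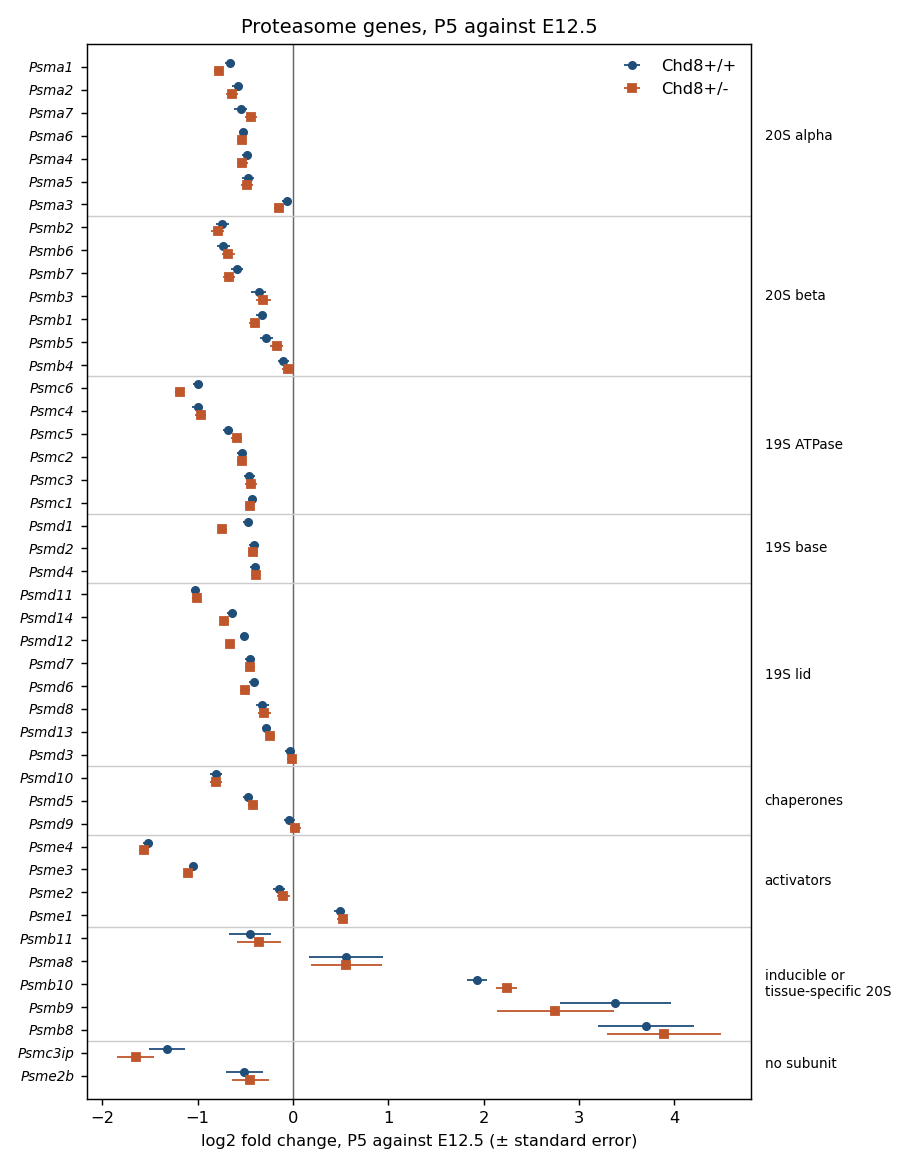
Log2 fold change of each of the 45 members at P5 against E12.5 (horizontal axis, points with ± standard error), in Chd8+/+ (circles) and Chd8+/- (squares), grouped by place in the proteasome. Most points lie between 0 and -1, Psme4 lies lowest among the activators at -1.52 and -1.56, and Psmb8, Psmb9, Psmb10 and Psme1 lie to the right of 0. Psma8 and, in Chd8+/- only, Psmd9 (0.026) also lie to the right of 0 but were not called.

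In the core particle, 6 of 7 alpha subunits were lower at P5 in Chd8+/+ (median change over the 7 of -0.52 on the log2 scale). Psma1 was at 146, 164 and 158 CPM in the E12.5 Chd8+/+ libraries and at 95.4, 104 and 95.9 CPM at P5, a log2 fold change of -0.66 ± 0.0487 (SE, edgeR adjusted p = 7.52e-09). The libraries of the stages did not overlap. The exception was Psma3, at 125, 137 and 132 CPM at E12.5 and 125, 132 and 119 CPM at P5 (-0.068, edgeR adjusted p = 0.178), whose libraries overlapped. It was called without E12.5 Chd8+/+ replicate 1 (-0.13, edgeR adjusted p = 0.0223) or P5 Chd8+/+ replicate 2 (-0.11, edgeR adjusted p = 0.0435). With total-count scaling it was also called (-0.12, edgeR adjusted p = 0.0142). With offsets that correct each library for gene length, it was called at -0.36 (edgeR adjusted p = 2.20e-05), a setting that moved the median of all genes to -0.24. In Chd8+/- all 7 alpha subunits were lower, Psma3 by the least (-0.15, edgeR adjusted p = 0.00581). The Psma3 call there was lost with DESeq2 (adjusted p = 0.0852) and without E12.5 Chd8+/- replicate 3 (-0.11, edgeR adjusted p = 0.0689). Relative log expression (RLE) scaling (edgeR adjusted p = 0.0622) and upper-quartile scaling (edgeR adjusted p = 0.0557) also lost it.

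Of the 7 constitutive beta subunits, 6 were lower in each genotype. Psmb4 was not called in either (-0.10, edgeR adjusted p = 0.146 in Chd8+/+, and -0.17 with 0.0293 without E12.5 Chd8+/+ replicate 1). It was called with total-count scaling in Chd8+/+ (-0.15, edgeR adjusted p = 0.0286) and with gene-length offsets in both genotypes (-0.36, edgeR adjusted p = 1.61e-04, and -0.32, edgeR adjusted p = 4.80e-04). Psmb2 fell by 0.74 on the log2 scale in Chd8+/+, the largest fall in this group. The 3 cutting subunits fell unequally. Psmb6, the caspase-like subunit, went from 161, 183 and 169 CPM to 103, 109 and 97 CPM in Chd8+/+ (-0.73 ± 0.068, SE, edgeR adjusted p = 1.16e-07). Psmb7, the trypsin-like subunit, went from 110, 128 and 122 CPM to 79.9, 85.2 and 73.2 CPM (-0.59 ± 0.0607, SE, edgeR adjusted p = 3.47e-07). Psmb5, the chymotrypsin-like subunit, went from 66.5, 77.2 and 65.6 CPM to 57.6, 59.7 and 55.2 CPM (-0.28 ± 0.0669, SE, edgeR adjusted p = 0.00145). None of these genes overlapped between stages in Chd8+/+. In Chd8+/- the fall of Psmb5 was -0.17 with overlapping libraries, and it was past the threshold by edgeR (adjusted p = 0.0282) but not with DESeq2 (adjusted p = 0.132). It was lost without E12.5 Chd8+/- replicate 1 or 3 or P5 Chd8+/- replicate 2 or 3 (-0.18 to -0.13, edgeR adjusted p from 0.0515 to 0.149). RLE scaling (edgeR adjusted p = 0.11) and upper-quartile scaling (edgeR adjusted p = 0.127) also lost it.

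The 6 ATPases, which unfold substrates and open the core, were all lower in both genotypes (median -0.61 in Chd8+/+ and -0.57 in Chd8+/-). Psmc6 was at 183, 191 and 198 CPM in E12.5 Chd8+/+ and at 96.4, 99.5 and 89.6 CPM at P5, which is 0.50 of the E12.5 level (SE of the log2 fold change 0.0443, edgeR adjusted p = 1.80e-11). In Chd8+/- it fell from 195, 192 and 205 CPM to 84.9, 86.5 and 88.3 CPM (-1.19, edgeR adjusted p = 2.74e-12). Psmc4 fell by nearly as much (to 0.50 of the E12.5 level in Chd8+/+ and 0.51 in Chd8+/-). The 4 other ATPases lay between -0.68 for Psmc5 and -0.43 for Psmc1 in Chd8+/+.

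The 3 base subunits that are not ATPases were lower in both genotypes. Psmd2, a docking site for ubiquitin carriers, was the member with the highest unscaled level, at 347, 383 and 377 CPM in E12.5 Chd8+/+ and 272 to 286 CPM at P5 (-0.41, edgeR adjusted p = 1.53e-06). Psmd4, a ubiquitin receptor, changed by -0.40. Psmd1, a large scaffold of the base, changed by -0.47 ± 0.0497 in Chd8+/+ and -0.74 ± 0.05 in Chd8+/- (SE), and its genotype values are given below.

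In the lid, 7 of 8 subunits were lower in each genotype. Psmd11, a lid scaffold, fell most, from 135, 135 and 151 CPM to 69.3, 69.7 and 67.3 CPM in Chd8+/+ (-1.03 ± 0.0444, SE, edgeR adjusted p = 1.41e-11). Psmd14, the enzyme that cuts off the ubiquitin chain, changed by -0.64. Psmd3 did not follow, with 153, 137 and 156 CPM at E12.5 and 146, 147 and 144 CPM at P5 (-0.032, edgeR adjusted p = 0.543), and its stages overlapped. Of the 3 chaperones that assemble the base, Psmd10 fell by 0.81 and Psmd5 by 0.47 on the log2 scale in Chd8+/+, and Psmd9 was at -0.038 (edgeR adjusted p = 0.549). Both exceptions depended on the scaling: with gene-length offsets Psmd3 was called lower in both genotypes (-0.30, edgeR adjusted p = 8.29e-05, and -0.24, edgeR adjusted p = 7.32e-04) and Psmd9 in Chd8+/+ (-0.28, edgeR adjusted p = 0.00183), close to the median of all genes under that setting.

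The 4 activator genes split. Psme4, which encodes PA200, went from 265 ± 15.9 CPM in E12.5 Chd8+/+ (SD, n = 3), with a lowest library of 247 CPM, to 93.3, 93.5 and 89.8 CPM at P5, a log2 fold change of -1.52 ± 0.0529 (SE, edgeR adjusted p = 1.18e-12). Psme3, the nuclear PA28 gamma, went from 218, 209 and 226 CPM to 110, 107 and 99.1 CPM (-1.05 ± 0.0443, SE, edgeR adjusted p = 1.13e-11). Psme1 and Psme2 encode PA28 alpha and beta, which assemble into 1 ring. Psme1 rose from 38.7, 43.1 and 38.9 CPM to 56.4, 59.8 and 53.8 CPM (0.49 ± 0.0593, SE, edgeR adjusted p = 2.07e-06). Psme2 lay at 27.5, 30.1 and 27.6 CPM at E12.5 and 26.1, 27.2 and 23.5 CPM at P5. Its log2 fold change of -0.15 was past the threshold with edgeR (adjusted p = 0.0406) and not with DESeq2 (adjusted p = 0.217), and in Chd8+/- it was -0.10 (edgeR adjusted p = 0.168), or -0.36 with gene-length offsets (edgeR adjusted p = 1.55e-04). The Psme2 call in Chd8+/+ was lost without E12.5 Chd8+/+ replicate 2, P5 Chd8+/+ replicate 1, P5 Chd8+/+ replicate 3 or P5 Chd8+/- replicate 3 (log2 fold change -0.17 to -0.10, edgeR adjusted p from 0.0504 to 0.186). RLE scaling, upper-quartile scaling, a replicate block, no low-count filter and the Chd8+/+ libraries fitted alone also lost it (edgeR adjusted p from 0.0563 to 0.159).

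Summed over the 31 constitutive 20S and 19S subunits, levels were 4450 ± 221 CPM in E12.5 Chd8+/+, 4541 ± 149 in E12.5 Chd8+/-, 3161 ± 130 in P5 Chd8+/+ and 3172 ± 108 in P5 Chd8+/- (SD, n = 3 each). Of these subunits, 28 were lower and 0 higher at P5 in Chd8+/+ (edgeR), and 29 were lower and 0 higher in Chd8+/-. A setting that corrects for gene length moved the median of the members to -0.69 in Chd8+/+ and -0.70 in Chd8+/-, and that of all genes to -0.24 and -0.20. Other sets of genes moved with stage as well. The summed level of 10 cell cycle genes was 3450 to 3784 CPM at E12.5 and 186 to 219 CPM at P5, that of 10 erythrocyte genes 3237 to 4633 and 107 to 131 CPM, and that of 13 microglial genes 57.5 to 65 and 190 to 255 CPM. Their part in the change of the members was not tested. The 10 neocortical genes summed to 1245 to 1654 CPM at E12.5 and 1341 to 1448 CPM at P5, a sum over genes that moved in opposite directions (in Chd8+/+, 3 were called higher and 6 lower, between -3.48 and 4.63 on the log2 scale).

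Because so many members fell together, the 250 bases before the annotated start were read for the members with an entry in the RefSeq promoter table (38 of 45, build GRCm38.p6). Those of Psmd11 and Psmc6, the lid and ATPase genes with the largest falls, are shown with those of Psmb5 and Psmb10, a standard and an inducible cutting subunit that moved in opposite directions. They lie at chr11:80428365-80428614 on the plus strand (Psmd11), chr14:45329574-45329823 on the plus strand (Psmc6), chr14:54617996-54618245 on the minus strand (Psmb5) and chr8:105938393-105938642 on the minus strand (Psmb10), outside any annotated gene. Each is written 5′ to 3′ on the strand of its gene, and capitals mark the antioxidant response element core TGACNNNGC on either strand, where N is any base.
Psmd11: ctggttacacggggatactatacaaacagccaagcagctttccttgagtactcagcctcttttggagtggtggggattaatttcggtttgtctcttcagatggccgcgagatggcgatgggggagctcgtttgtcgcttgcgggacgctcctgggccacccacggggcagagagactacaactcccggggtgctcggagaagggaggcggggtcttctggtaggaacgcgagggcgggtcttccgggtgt
Psmc6: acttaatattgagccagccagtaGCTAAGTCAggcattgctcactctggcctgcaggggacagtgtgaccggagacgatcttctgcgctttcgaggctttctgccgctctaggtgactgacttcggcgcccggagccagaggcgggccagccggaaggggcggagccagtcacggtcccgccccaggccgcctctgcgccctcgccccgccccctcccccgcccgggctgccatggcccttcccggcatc
Psmb5: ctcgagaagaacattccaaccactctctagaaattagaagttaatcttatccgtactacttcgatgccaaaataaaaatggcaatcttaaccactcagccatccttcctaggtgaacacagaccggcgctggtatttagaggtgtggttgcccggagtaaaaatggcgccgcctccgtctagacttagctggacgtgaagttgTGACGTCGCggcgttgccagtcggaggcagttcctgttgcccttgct
Psmb10: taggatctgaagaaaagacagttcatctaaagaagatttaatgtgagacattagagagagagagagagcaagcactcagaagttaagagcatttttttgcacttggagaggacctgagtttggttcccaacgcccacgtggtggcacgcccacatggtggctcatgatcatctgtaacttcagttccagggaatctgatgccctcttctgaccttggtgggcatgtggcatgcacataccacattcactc

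That core is the letter pattern read by the factors Nfe2l1 and Nfe2l2, the former known as the driver of proteasome gene expression when proteasome activity is low. Searched on both strands, it lay in the window of 5 of 38 members (13.2%), namely Psmb5, Psmb6, Psmc6, Psmd12 and Psmd9, and in 11.5% of all genes with an entry. In Psmb5 it stood 47 bases and in Psmc6 227 bases before the start. The CCAAT box, letters CCAAT, lay in 15 of 38 members (39.5%) and in 37.5% of all genes. The interferon-stimulated response element core, GAAA and again GAAA after any 2 bases, lay in Psmb3, Psmd4 and Psmd9 (7.89% of members against 3.46% of genes). The gamma-activated sequence TTCNNNGAA lay in Psmb8 alone among the members, 97 bases before the start, against 8.13% of all genes. It is shown in capitals within chr17:34198088-34198116 on the plus strand, a stretch that lies inside the annotated Psmb8 gene.
Psmb8: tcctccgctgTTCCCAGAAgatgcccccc
These matches describe the letters in these windows and give no measure of binding.

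The inducible subunits ran the other way at low levels. Psmb10, the inducible counterpart of Psmb7, was at 4.43, 5.06 and 4.93 CPM in E12.5 Chd8+/+ and 4.81, 4.05 and 4.82 CPM in E12.5 Chd8+/-. At P5 it was at 18.4, 21 and 15.7 CPM in Chd8+/+ and 22.8, 20.4 and 21.5 CPM in Chd8+/-. The stages lay far apart, with log2 fold changes of 1.93 ± 0.107 in Chd8+/+ (SE, edgeR adjusted p = 2.68e-10) and 2.24 ± 0.109 in Chd8+/- (edgeR adjusted p = 5.41e-11). Set against Psmb7 per kilobase, Psmb10 made up 9.75 ± 0.103% of the pair at E12.5 and 38.3 ± 1.64% at P5 in Chd8+/+ (SD, n = 3). In Chd8+/- its share was 9.2 ± 0.495% and 43.4 ± 1.4%. The long exon model of Psmb7 raises all of these shares, so their change with stage is better read than their size.

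Psmb8, the inducible counterpart of Psmb5, was barely detected at E12.5, at 0.251, 0.161 and 0.146 CPM in Chd8+/+ and 0.102, 0.0671 and 0.123 CPM in Chd8+/-. At P5 it was at 2.63, 3.65 and 1.15 CPM in Chd8+/+ and 0.934, 2.46 and 1.08 CPM in Chd8+/-. The E12.5 groups held 27 and 13 counts of this gene in all and the P5 groups 352 and 194. The log2 fold changes were 3.70 ± 0.501 in Chd8+/+ (SE, edgeR adjusted p = 7.46e-06) and 3.89 ± 0.6 in Chd8+/- (edgeR adjusted p = 2.83e-05).

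Psmb9, the inducible counterpart of Psmb6, was similar, at 0.212, 0.092 and 0.167 CPM in E12.5 Chd8+/+ and 1.64, 2.46 and 0.971 CPM at P5. In Chd8+/- it was at 0.179, 0.134 and 0.185 CPM and then 0.551, 2.25 and 0.603 CPM. Its log2 fold changes were 3.38 ± 0.582 (SE, edgeR adjusted p = 8.33e-05) and 2.75 ± 0.615 (edgeR adjusted p = 8.26e-04). Psmb8 and Psmb9 passed the filter on low counts only through their P5 libraries, which favours a call, and both were also called with no such filter. Even at P5 they remained a small part of their pairs per kilobase, with Psmb8 at 1.33 ± 0.632% beside Psmb5 and Psmb9 at 0.819 ± 0.313% beside Psmb6 in Chd8+/+ (SD, n = 3). Here the longer exon models belong to the inducible genes (2736 bases for Psmb8 against 871 for Psmb5, 3659 for Psmb9 against 1872 for Psmb6), which lowers these shares. Without division by length, the P5 Chd8+/+ means were 2.48 CPM for Psmb8 beside 57.5 for Psmb5 and 1.69 CPM for Psmb9 beside 103 for Psmb6. Psmb9 shares 5.79% of its exon bases with Tap1 on the opposite strand, and Tap1 was also higher at P5.

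The tissue-restricted forms were near the limit of detection. Psmb11, the thymic form of the chymotrypsin-like subunit, was at 0.941 to 1.33 CPM in E12.5 Chd8+/+ and 0.597 to 0.931 CPM at P5 (-0.45, edgeR adjusted p = 0.0759). Psma8, a form of Psma7 known from testis, was at 0.125 to 0.368 CPM and 0.298 to 0.505 CPM (0.56, edgeR adjusted p = 0.189). Neither was called in either genotype. Psma8 was past the threshold in Chd8+/- without E12.5 Chd8+/- replicate 2 (0.99, edgeR adjusted p = 0.0338). Psmb11 was past it with gene-length offsets (-0.72, edgeR adjusted p = 0.00774 in Chd8+/+, and -0.60, edgeR adjusted p = 0.0262 in Chd8+/-).

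**Figure D2:**
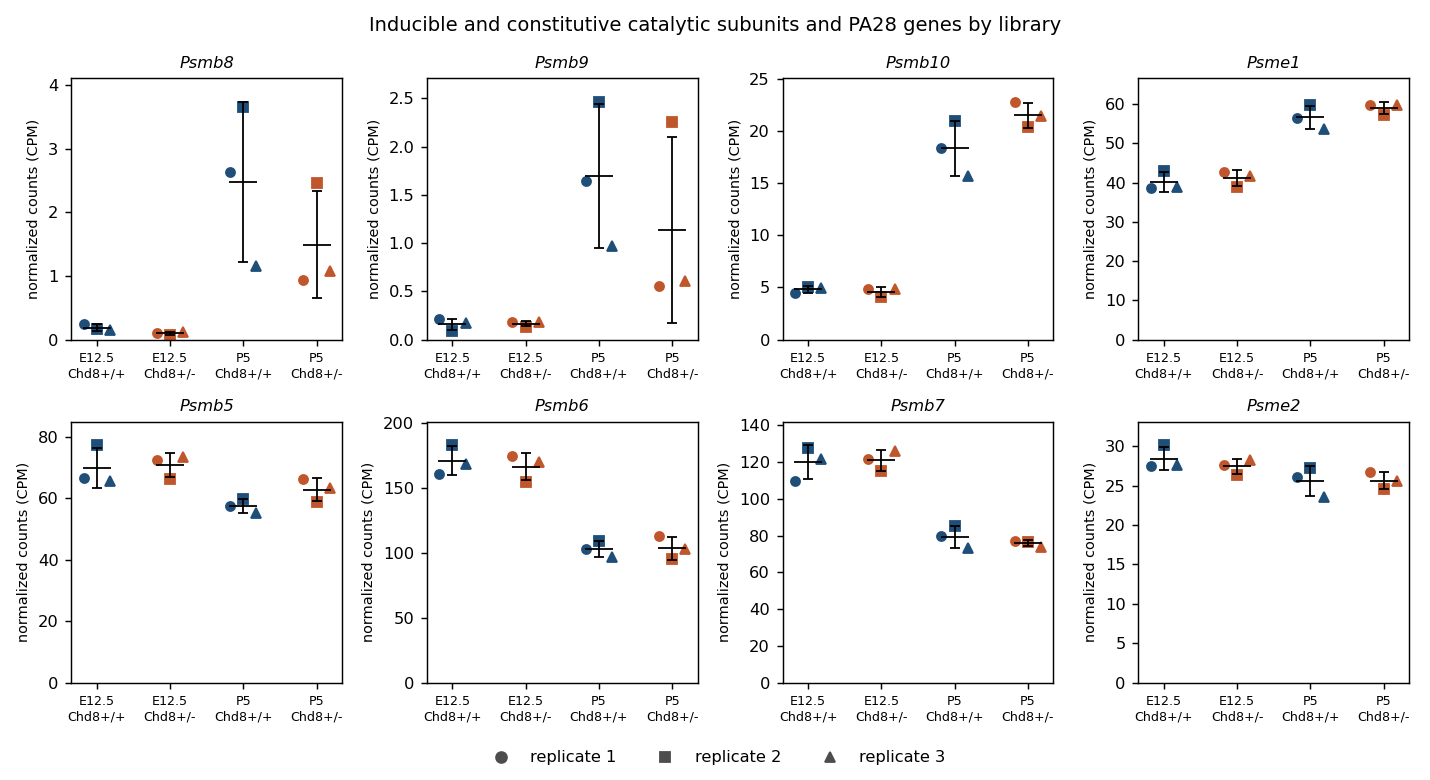
Normalized counts (CPM) in every library for the inducible subunits Psmb8, Psmb9 and Psmb10 above the standard subunits Psmb5, Psmb6 and Psmb7 that they replace, and for the PA28 genes Psme1 and Psme2, with group means and SD (bars, n = 3). Vertical axes start at 0 and differ between panels, Psmb10 lies at 4.05 to 5.06 at E12.5 and 15.7 to 22.8 at P5, and Psmb8 and Psmb9 vary most among P5 libraries.

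Psmb8 and Psmb9 also varied within the P5 groups more than other members. Their highest P5 library was 3.91-fold and 4.46-fold above their lowest, against 1.45-fold for Psmb10 and 1.11-fold for Psme1. Both were high in Chd8+/+ replicates 1 and 2 and Chd8+/- replicate 2, and low in Chd8+/+ replicate 3 and Chd8+/- replicates 1 and 3, so the split ran across the genotypes. Those 3 libraries were the 3 highest of the 6 for 4 of 45 members (8.89%) and for 6.37% of all genes tested. The 4 members include Psmb8 and Psmb9 themselves. The others, Psmd11 and Psmd12, differed only 1.06-fold and 1.14-fold between their highest and lowest P5 library. The same libraries were also the 3 highest for 9 of 12 genes of antigen presentation (75%), all but Tapbp, Calr and Pdia3. The libraries were singled out after the values of Psmb8 had been seen, and these shares are descriptions with no test.

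Among those genes, B2m, the light chain of class I molecules, was at 58.1, 84.3 and 38.4 CPM in P5 Chd8+/+ and 30.9, 66.8 and 33.7 CPM in P5 Chd8+/-. Nlrc5, the transactivator of class I genes, was at 4.92, 5.86 and 1.92 CPM and 0.815, 4.41 and 0.969 CPM. Tap1, a subunit of the peptide transporter that lies beside Psmb9 on chromosome 17, was at 12, 13 and 6.75 CPM and 3.21, 10.3 and 4.29 CPM. All were high in the libraries in which Psmb8 was high. The 13 microglial markers summed to 225, 255 and 191 CPM in P5 Chd8+/+ and 190, 210 and 220 CPM in P5 Chd8+/-, and the 7 endothelial markers to 316 and 313 CPM in Chd8+/+ replicates 1 and 2 and 242 and 247 CPM in Chd8+/- replicates 1 and 3, with the other libraries between. The part of these cells in the pattern was not tested. The pattern was not shared by Psmb10 and Psme1, which were highest in Chd8+/+ replicate 2 and Chd8+/- replicates 1 and 3.

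**Figure D3:**
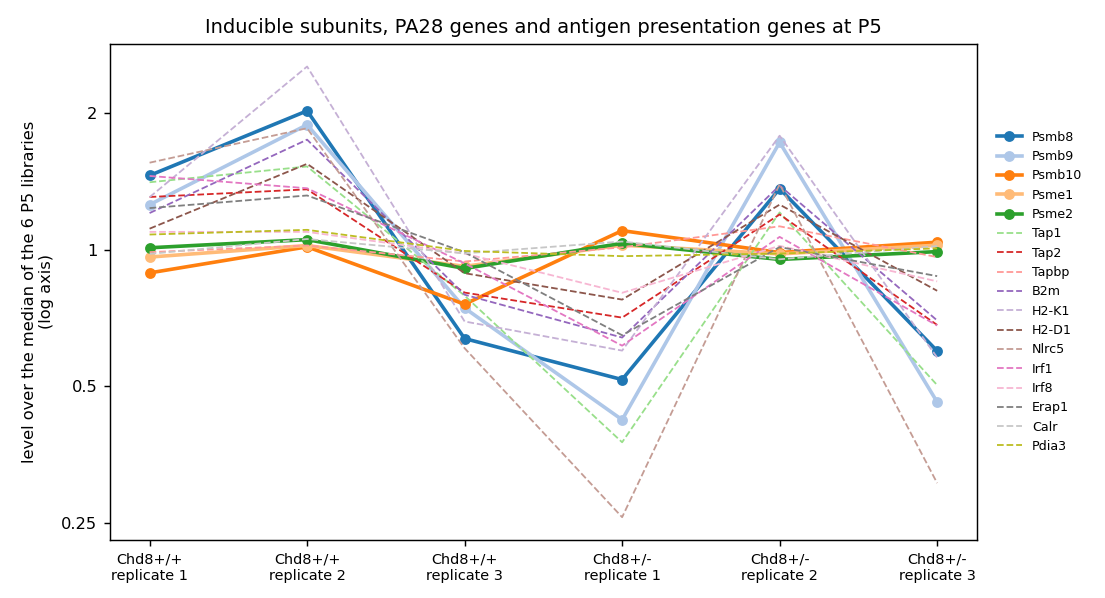
Level of the inducible subunits, the PA28 genes (solid lines) and 12 antigen presentation genes (dashed lines) in each P5 library, divided by the median of that gene over the 6 P5 libraries (vertical axis, log scale). Lines join the libraries of a gene to guide the eye; Psmb8, Psmb9 and most antigen presentation genes are high in Chd8+/+ replicates 1 and 2 and Chd8+/- replicate 2, while Psmb10, Psme1 and Psme2 stay near 1.

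The list of 12 antigen presentation genes, set beside the inducible subunits as their best known partners, was largely higher at P5. In Chd8+/+, 10 were higher and 2 lower, and in Chd8+/- 9 were higher and 2 lower (edgeR), where 41.4% and 41.3% of all genes were higher and 41.7% and 41.6% lower. Tap1 rose by 3.44 ± 0.406 on the log2 scale in Chd8+/+ (SE, edgeR adjusted p = 1.71e-06) and B2m by 1.21 ± 0.273 (edgeR adjusted p = 8.87e-04). The lower ones were Calr and Pdia3, chaperones of the endoplasmic reticulum. Of the 13 microglial markers, 12 were higher at P5 in each genotype and 0 lower (edgeR).

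The comparison of genotypes asks whether loss of 1 copy of Chd8 changed proteasome genes. At E12.5 it found no member past the threshold. Of the 43 members tested with edgeR, which left out Psmb8 and Psmb9 for their low counts, 0 were called and 0 had an unadjusted p under 0.05. Of all genes tested 0.00553% were called, and 5.15% had an unadjusted p under 0.05. DESeq2 gives no adjusted p to genes with low counts or outlying libraries. It called 0 of the 41 members with one, against 0.0373% of all genes with one. Log2 fold changes ran from -0.15 to 0.29, with 32 above and 11 below 0 (50.2% of all genes above) and a median of 0.026, against 0.001 over all genes.

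The smallest p at E12.5 was that of Psma3, at 125, 137 and 132 CPM in Chd8+/+ and 138, 138 and 145 CPM in Chd8+/-. The groups were separate by less than the spread within them, and the log2 fold change was 0.095 ± 0.0479 (SE, edgeR adjusted p = 0.942). Psmd12, a lid subunit, was at 102, 106 and 107 CPM in Chd8+/+ and 107, 111 and 112 CPM in Chd8+/- (0.065, edgeR adjusted p = 0.944). Of the 43 members tested, these were the 2 whose groups did not overlap, against 11.4% of all genes tested. Psmb8, left out of the edgeR test for its low counts, was also without overlap, lower in Chd8+/- (-0.93 ± 0.817 with DESeq2, SE, which gave it no adjusted p). Psma6 (0.079), Psma1 (0.084) and Psma4 (0.10) followed among the positive values, and Psma7 (-0.063), Psmd5 (-0.056), Psme2 (-0.051), Psmb11 (-0.15) and Psmb10 (-0.077) had the smallest p among the negative ones, with edgeR adjusted p from 0.944 to 0.98 over these 8 genes. The median moved between -0.012 (without E12.5 Chd8+/+ replicate 1) and 0.060 (without E12.5 Chd8+/+ replicate 2 or E12.5 Chd8+/- replicate 2), and 5 members had an unadjusted p under 0.05 without E12.5 Chd8+/+ replicate 2 and 1 without E12.5 Chd8+/+ replicate 1.

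At P5, 0 of 45 members were called with edgeR, and 5 had an unadjusted p under 0.05, of which 3 were higher (Psmb5, Psmb10 and Psmb3) and 2 lower (Psmd1 and Psmc6) in Chd8+/-. Of all genes tested, 0.00536% were called with edgeR, and 17.8% had an unadjusted p under 0.05. DESeq2 called 1 of the 40 members with an adjusted p, Psmd1, and 5.22% of all genes with one. Log2 fold changes ran from -0.72 to 0.31 with 32 above and 13 below 0 (50.4% of all genes above), and their median was 0.033 against 0.002 over all genes. The groups did not overlap for 4 members, against 23.4% of all genes tested. Without P5 Chd8+/- replicate 2, 15 members had an unadjusted p under 0.05 and 0 were called with edgeR, while the calls over all genes went to 327. Without P5 Chd8+/- replicate 1 there were 2 with an unadjusted p under 0.05 and without P5 Chd8+/+ replicate 1 there were 3, and 0 were called. Without P5 Chd8+/- replicate 3, the library that stood apart, 6 members had an unadjusted p under 0.05 and 0 were called. The median ran from 0.005 (without P5 Chd8+/- replicate 1) to 0.065 (without P5 Chd8+/+ replicate 2).

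**Figure D4:**
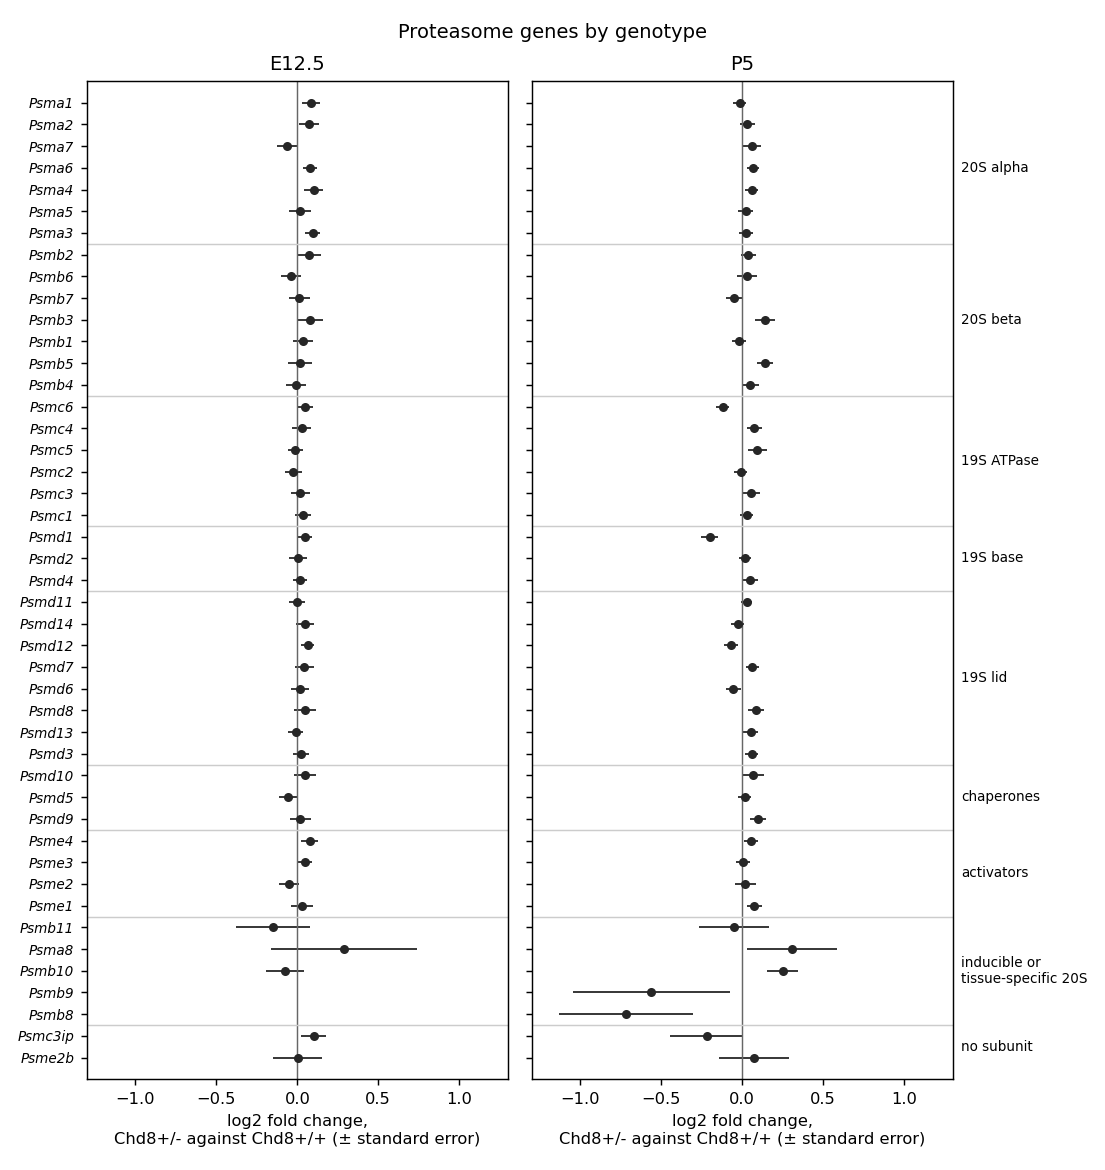
Log2 fold change of each member in Chd8+/- against Chd8+/+ (horizontal axis, points with ± standard error), at E12.5 on the left and P5 on the right, grouped by place in the proteasome. Points of the constitutive subunits lie within about 0.2 of 0 at both stages, Psmb8 and Psmb9 have no E12.5 point because edgeR did not test them, and the widest bars belong to the genes with the fewest counts.

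Psmd1, a scaffold of the 19S base, had the smallest p of the members at P5. It was at 144, 144 and 124 CPM in Chd8+/+ and 118, 120 and 117 CPM in Chd8+/-. Every Chd8+/- library lay below every Chd8+/+ library, with Chd8+/+ replicate 3 nearest to them. The log2 fold change was -0.20 ± 0.0528 (SE), with an edgeR adjusted p of 0.123 and a DESeq2 adjusted p of 0.0127. It was also called without a low-count filter (edgeR adjusted p = 0.00419), a setting under which all genes called rose from 1 to 995. Over all settings tried its log2 fold change ran from -0.26 to -0.15 and its adjusted p from 0.00419 to 0.399. Psmd1 lies at chr1:86064387-86139151 on the plus strand and shares 7.61% of its exon bases with Gm21972 and Htr2b. At E12.5 it was at 187, 187 and 197 CPM in Chd8+/+ and 197, 196 and 198 CPM in Chd8+/-.

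Psmc6, an ATPase of the base, was at 96.4, 99.5 and 89.6 CPM in P5 Chd8+/+ and 84.9, 86.5 and 88.3 CPM in P5 Chd8+/-. Its groups were separate by a narrow gap, and the log2 fold change was -0.12 ± 0.0403 (SE, edgeR adjusted p = 0.175, DESeq2 adjusted p = 0.147). Psmc6 lies on chromosome 14, as do Chd8 and 5 further members. Among the other members with negative values, Psmd12 was at -0.070 (edgeR adjusted p = 0.406) and Psmd6 at -0.054 (edgeR adjusted p = 0.568).

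Among the members higher in Chd8+/-, Psmb5 was at 57.6, 59.7 and 55.2 CPM in P5 Chd8+/+ and 66.3, 58.8 and 63.2 CPM in P5 Chd8+/-. The groups overlapped through Chd8+/- replicate 2, and the log2 fold change was 0.14 ± 0.0503 (SE, edgeR adjusted p = 0.193). Psmb10, at the levels given above, was higher by 0.25 ± 0.0935 on the log2 scale (SE, edgeR adjusted p = 0.213, 0.052 to 0.458 over the other settings), and its highest Chd8+/+ library lay above its lowest Chd8+/- library. Psmb3 was at 69.7, 74.1 and 63.6 CPM and 81.1, 70.4 and 74.3 CPM (0.14, edgeR adjusted p = 0.277). Psmd9, a base chaperone, was at 28.7, 28.7 and 28.9 CPM in Chd8+/+ and 31, 29.2 and 31.1 CPM in Chd8+/-, without overlap (0.10, edgeR adjusted p = 0.327). Psmd10 was also without overlap (0.067, edgeR adjusted p = 0.625), and Psmd8 was at 0.085 (edgeR adjusted p = 0.399).

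**Figure D5:**
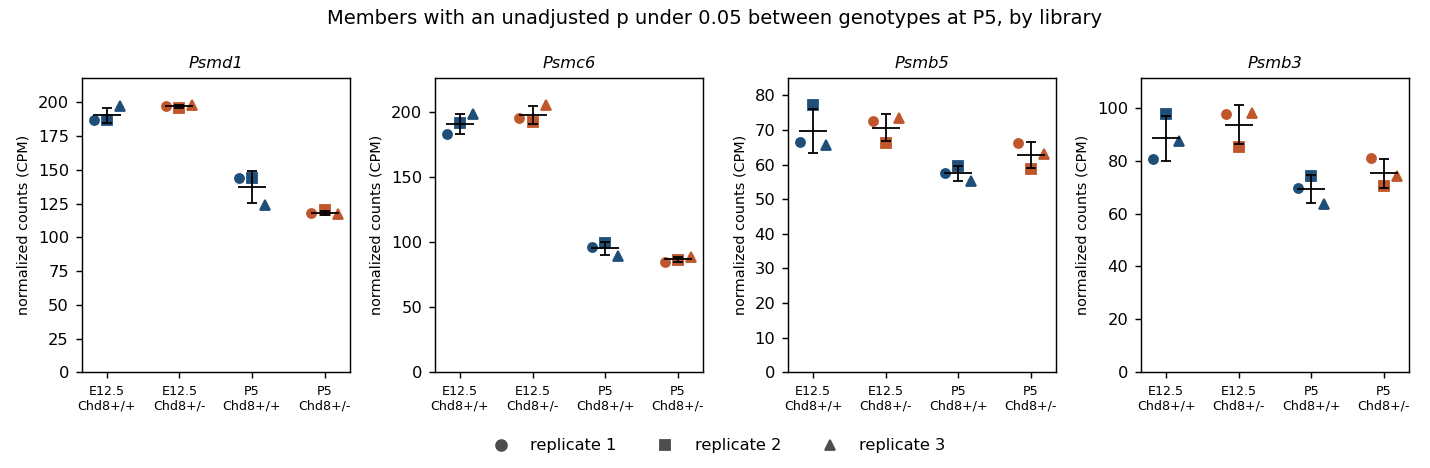
Normalized counts (CPM) in every library for Psmd1, Psmc6, Psmb5 and Psmb3, with group means and SD (bars, n = 3). Vertical axes start at 0; at P5 the Chd8+/- libraries of Psmd1 (117 to 120) lie below those of Chd8+/+ (124 to 144), and those of Psmb5 and Psmb3 overlap.

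Psmb8 and Psmb9 had the largest negative values at P5, -0.72 ± 0.414 (SE, edgeR adjusted p = 0.398) and -0.56 ± 0.484 (SE, edgeR adjusted p = 0.576), with errors to match. Their groups overlapped throughout. Among the 12 antigen presentation genes, 0 were called with edgeR at P5, and 10 were lower in Chd8+/- with a median over the 12 of -0.43. An unadjusted p under 0.05 was found for 3, all lower: Tap1 (-0.82), Irf1 (-0.65) and Erap1 (-0.46), against 17.8% of all genes tested. DESeq2 called Irf1 (adjusted p = 0.026) and Erap1 (adjusted p = 0.0294), against 5.22% of all genes with an adjusted p. The groups overlapped for all 3. Marker lists of other cells also differed by genotype at P5, without passing the edgeR threshold. All 6 choroid plexus and all 6 striatal markers were lower in Chd8+/- without overlap (median log2 fold changes of -0.71 and -0.30), and 5 of 7 endothelial markers were (median over the 7 of -0.22). Of the 18666 genes tested, 2763 were lower without overlap. DESeq2 called 3 choroid plexus, 4 striatal and 4 endothelial markers lower. Of the 10 neocortical genes, 3 were lower without overlap and DESeq2 called 2 lower. The part of these cells in the values of the members was not tested.

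The interaction of genotype and stage asks whether the genotype difference itself changed between E12.5 and P5. It called 0 of 45 members with edgeR, against 0% of all genes tested. With DESeq2 it called 0 of the 37 members with an adjusted p, against 0.0929% of all genes with one. An unadjusted p under 0.05 was found for 3 members (10% of all genes tested), all with negative values. They were Psmd1 (-0.26 ± 0.0703, SE, edgeR adjusted p = 0.362), Psmc6 (-0.18 ± 0.0623, SE, edgeR adjusted p = 0.404) and Psmd12 (-0.15 ± 0.0577, SE, edgeR adjusted p = 0.443). Each fell more steeply from E12.5 to P5 in Chd8+/- by the point estimate, and none passed the adjusted threshold. Without P5 Chd8+/- replicate 2, 5 members had an unadjusted p under 0.05, and without P5 Chd8+/- replicate 3 or E12.5 Chd8+/- replicate 3, 2 had.

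Genes that work around the proteasome but fall outside the symbol rule were followed as a list of 31. At P5 20 were lower and 4 higher in each genotype, with medians of -0.34 in Chd8+/+ and -0.38 in Chd8+/- (edgeR). Of all genes tested, 41.7% and 41.6% were lower and 41.4% and 41.3% higher, with medians of -0.018 and -0.005. Sem1, a small lid subunit with an unrelated symbol, changed by -1.05 ± 0.0776 in Chd8+/+ (SE, edgeR adjusted p = 8.48e-09). The core assembly chaperones Psmg1 (-0.80) and Psmg4 (-0.86) were lower with the subunits they assemble, while Psmg3 was not called (-0.20, edgeR adjusted p = 0.111). Ddi2, the protease that activates Nfe2l1, changed by -1.14 (edgeR adjusted p = 2.75e-11), and Nfe2l2 by -0.93 (edgeR adjusted p = 6.99e-09). Nfe2l1 itself was higher by 0.36 ± 0.0474 (SE, edgeR adjusted p = 6.06e-06), as were Ube3c (0.47), a ligase that extends chains on the proteasome, Usp14 (0.34), a deubiquitinase of the base, and Zfand5 (0.35), which stimulates the proteasome. All 4 were higher in Chd8+/- as well.

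Between genotypes, 0 of these 31 genes were called with edgeR at either stage. At E12.5 the one gene with an unadjusted edgeR p under 0.05 was Psmg3 (-0.32, edgeR adjusted p = 0.942), and its groups did not overlap. At P5 there were 4, Uba1 (-0.13), Ecpas (-0.11), Usp14 (-0.086) and Akirin2 (0.11), also without overlap, against 17.8% of all genes with such a p. In all, the groups did not overlap for 5 of the 31 at P5, against 23.4% of all genes tested, and for 6 at E12.5, against 11.4%. Of the 4, DESeq2 called Uba1, the main enzyme that activates ubiquitin (adjusted p = 0.0428).

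Of the members, 2 name no subunit and are given separately. Psmc3ip was at 26.8, 29.7 and 25.6 CPM in E12.5 Chd8+/+ and 10.7, 11.4 and 10.9 CPM at P5, a log2 fold change of -1.32 ± 0.191 (SE, edgeR adjusted p = 1.55e-05). In P5 Chd8+/- it was at 5.13, 11.2 and 11.5 CPM, with replicate 1 far below the other libraries, and the genotype difference was -0.22 ± 0.226 (SE, edgeR adjusted p = 0.634). Psme2b stayed between 1.06 and 2.17 CPM in all libraries, and reads from its near-identical parent Psme2 could be counted to it. It was called lower at P5 in both genotypes with edgeR (-0.51, adjusted p = 0.0241, and -0.45, adjusted p = 0.0437) and in neither with DESeq2 (adjusted p = 0.068 and 0.112). The call was lost in Chd8+/+ without any 1 of 3 libraries (E12.5 Chd8+/+ replicate 3, P5 Chd8+/+ replicates 2 and 3, edgeR adjusted p from 0.0515 to 0.0806). In Chd8+/- it was lost without any 1 of 10 of the 12 libraries (edgeR adjusted p from 0.0504 to 0.197). RLE scaling, upper-quartile scaling and the Chd8+/- libraries fitted alone also lost it in Chd8+/- (edgeR adjusted p from 0.0661 to 0.103).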

How the data were processed

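RNA from neocortex was sequenced by the authors as paired-end libraries made with dUTP strand marking. Per the study's methods and processing notes, the authors checked reads with FastQC 0.11.2, trimmed with Trim Galore 0.4.1, aligned to GRCm38.p4 with TopHat2 2.1.0 and counted with featureCounts 1.5.0. The deposited values are raw counts per gene and sequencing run, in a table for each stage, with the merged exon length of each gene. The authors tested genotypes with DESeq2 1.10.1.

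The 2 runs of each of the 12 libraries were summed. The main test was edgeR 4.0.16 (R 4.3.3) with TMM scaling, filterByExpr, a quasi-likelihood fit and Benjamini-Hochberg adjustment over all genes tested at 0.05. Genotypes were compared within a stage (6 libraries), and stages and the interaction over all 12. Levels and fold changes come from these fits, and SE is that of the log2 fold change. Alternatives were DESeq2 1.42.0, other scalings, no low-count filter, gene-length offsets, other sample sets, a replicate block, a threshold of 0.1 and leaving out each library. Robust moderation was added after the data had been seen. The depth of 38774591 to 54695236 counts leaves counting error small for most members and large for Psmb8, Psmb9 and Psma8 at E12.5.

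The code was checked on simulated data, with 2 sets per comparison and 200 changed genes in each. For the genotype comparison edgeR recovered 3% of log2 changes of 0.2 and 18% of 0.3 at E12.5, and 6% and 28% at P5. DESeq2 recovered 6% and 34% at E12.5, and 14% and 43% at P5. Of the edgeR calls, 10.5% at E12.5 and 7% at P5 fell on unchanged genes, and of the DESeq2 calls 21% and 12.8%. Members, lists, motifs and tests were chosen with earlier results of these data known. The rule was to give values in each library for the 5 members with the smallest p in each direction of a genotype comparison. It also covered the 5 largest changes in each direction between stages, the inducible and PA28 members with their constitutive counterparts, and Psmd1. Of these, Psma6, Psma7 and Psmd5 at E12.5 and Psmd6, Psmd8 and Psmd12 at P5, among others, were given by fold change and adjusted p. Psme4 at E12.5 was given by mean, SD and lowest library. Other members were to be given by ranges, counts or fold change alone. Psma1, Psmd2, the 2 members that name no subunit and the exceptions within a role were given more fully after their values had been seen. Marker lists covered microglia, endothelium, erythrocytes, choroid plexus, meninges, striatal neurons, neocortex and the cell cycle. Choroid plexus genes summed to 88.3 to 162 CPM at E12.5, 435 to 565 in P5 Chd8+/+ and 318 to 376 in P5 Chd8+/-. Meningeal genes summed to 507 to 1058 CPM at E12.5 and 271 to 352 at P5. Striatal genes summed to 14.1 to 16.8 CPM at E12.5, 267 to 290 in P5 Chd8+/+ and 198 to 242 in P5 Chd8+/-. Endothelial genes summed to 206 to 236 CPM at E12.5. Paaf1, of the list of genes around the proteasome, matched no identifier and was left out, and 2 genes of the lists are not reported here. Symbols were found for 46005 of 46603 identifiers. Promoter sequences are RefSeq, build GRCm38.p6.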

Additional observations from a re-analysis of the deposited data

How the results depend on the processing

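Of 217 values that summarise a comparison under an alternative, 212 stayed within the limits used (a count within 1.5 times the main one, a median moved by less than 1 SD between replicates), and 5 did not. The E12.5 genotype median, at 0.026 in the main analysis, changed sign within those limits without E12.5 Chd8+/+ replicate 1 (-0.012). The P5 genotype comparison called 1 member, Psmd1, with DESeq2 and 1, again Psmd1, without a low-count filter, against 0 in the main analysis. With gene-length offsets the median change with stage was -0.69 in Chd8+/+ and -0.70 in Chd8+/-, while the median of all genes went to -0.24 and -0.20. Leaving out single libraries, the stage median ran from -0.53 (without E12.5 Chd8+/+ replicate 1) to -0.42 in Chd8+/+. The cause was not tested. Over all alternatives the lower members numbered 33 to 40 in Chd8+/+ and 32 to 39 in Chd8+/-, and the 4 higher members were called in both genotypes under each of the 21 alternatives. Psme2 and Psme2b in Chd8+/+, and Psmb5, Psme2b and Psma3 in Chd8+/-, were the lower members that lost their call under some alternative, and no called member changed sign.

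Of 705 values of named genes, 683 kept their side, 10 were weaker (Psme2 with stage), 3 were stronger and 9 reversed. Without E12.5 Chd8+/- replicate 2, Psmb10 at E12.5 was at 0.006 (range over libraries left out -0.14 to 0.006). At P5 between genotypes, Psmb11 was at 0.060 without Chd8+/+ replicate 1 and 0.045 without Chd8+/+ replicate 3 (range -0.22 to 0.060). Psmb6 was at -0.006 without Chd8+/+ replicate 3 and -0.036 without Chd8+/- replicate 1 (range -0.036 to 0.089), and Psmb7 at 0.000 without Chd8+/+ replicate 2 (range -0.10 to 0.000). Psme2 was at -0.012 with gene-length offsets, -0.031 without Chd8+/+ replicate 3 and -0.012 without Chd8+/- replicate 1 (range -0.031 to 0.063). None of these had been past the threshold. Depth limits Psmb8, Psmb9 and Psma8 at E12.5, where a group held 13 to 27 counts of Psmb8.

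Groups share replicate numbers, and the labels do not say whether a number pairs libraries. Deviations of same-numbered libraries correlated at -0.227, -0.102 and -0.091 at E12.5 and at 0.227, 0.111 and 0.043 at P5. Those of different-numbered libraries ran from -0.099 to 0.207 at E12.5 and from -0.190 to 0.102 at P5. At P5 each Chd8+/+ library correlated best with the Chd8+/- library of its number, and at E12.5 none did. So few libraries cannot decide whether the numbers mark pairs. With a replicate block, 0 members were called between genotypes at E12.5 and 0 at P5, Psmd1 had an edgeR adjusted p of 0.203, and 34 members were lower at P5 in Chd8+/+ and 35 in Chd8+/-.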
